A study of Rattus norvegicus with 48 samples.

Results

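In rat liver, 6 mature miRNAs of metabolic families were followed: rno-miR-103-3p and rno-miR-107-3p, both strands of rno-miR-33, and both strands of rno-miR-378a. They were taken by name from the deposited count file, which lists 764 mature miRNAs, of which 664 had a read, and all 6 were among the 301 that passed the filter of 5 RPM (reads mapped to a miRNA, scaled to a total of 1000000 per library) in 3 of the 48 libraries. The livers came from male Sprague-Dawley rats. Thioacetamide (TAA), a hepatotoxicant that causes liver tumours in rats, was given once daily at 4.5 mg/kg (low dose), 15 mg/kg (middle dose) or 45 mg/kg (high dose) for 3, 7, 14 or 28 days (3-d to 28-d), and time-matched control rats received vehicle alone. Each of the 12 treatment conditions and 4 control groups held 3 rats, each a separate library of 18 to 25 base reads, and the age of the rats is not given in the sources used here.

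miRNAs of these families act by pairing of their seed (bases 2 to 8) with sites in messenger RNAs. miR-103 and miR-107 lie in introns of pantothenate kinase genes, whose enzymes start the synthesis of coenzyme A, and are known for restraining insulin signalling in liver. miR-33 lies within Srebf2, the gene of a transcription factor that switches on cholesterol synthesis, and lowers cholesterol export and fatty acid oxidation. miR-378a lies within Ppargc1b, the gene of a coactivator of mitochondrial and lipid metabolism, and is known for effects on mitochondrial metabolism and on energy use. In liver tissue, fewer cells of a type and less RNA per cell cannot be told apart.

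The mature sequences below, from RefSeq on build GRCr8, are shown to give the seeds, which are in capitals, and the near identity of the first pair. No coordinates of the study's own build, rn5, were used.
rno-miR-103-3p: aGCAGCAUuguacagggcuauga
rno-miR-107-3p: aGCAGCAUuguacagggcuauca
rno-miR-33-5p: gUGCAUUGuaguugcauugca
rno-miR-33-3p: cAAUGUUUccacagugcauca
rno-miR-378a-3p: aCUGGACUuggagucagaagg
rno-miR-378a-5p: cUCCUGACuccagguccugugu

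rno-miR-103-3p (chr3:138963278-138963300, plus strand, in Pank2) and rno-miR-107-3p (chr1:241750431-241750453, minus strand, in Pank1) had the same seed and were 23 bases long. They differed by G22C, counted from the 5′ end with the base of rno-miR-103-3p first. A read that ends before base 22 matches both, and the counts do not show how many such reads there were. rno-miR-103-3p has a second precursor in Pank3, and its row held 99.3% as many reads as the row kept, so the reads of the 2 precursors cannot be told apart. rno-miR-33-5p (chr7:115593957-115593977) and rno-miR-33-3p (chr7:115593997-115594017) are the 2 strands of a precursor in Srebf2, on the plus strand. rno-miR-378a-3p (chr18:57128925-57128945) and rno-miR-378a-5p (chr18:57128962-57128983) are the 2 strands of a precursor in Ppargc1b, on the minus strand.

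Library totals were 293331 to 14906217 counts with a median of 10237542, and the lowest total, of control 3-d replicate 1, was far below the next, 4829217. That library also stood apart in content. Its miR-486, abundant in red blood cells, was at 97896 RPM against a median of 3714 RPM in all libraries, but the other 3 of the 4 red blood cell markers were not high, with miR-451-5p at 130 RPM against a median of 237 RPM. Its 4 hepatocyte markers summed to 125582 RPM, while the other 11 controls held 222703 to 254551 RPM. The hepatocyte markers are led by miR-192-5p, with a median of 209194 RPM, and miR-122-5p, with 34939 RPM, so the tissue matched its label. For the called 3-d fold changes, those of rno-miR-378a-5p, and the control differences from 3-d that are named, the values without this library stand beside them.

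rno-miR-378a-3p ranked at place 9 by abundance, with a mean of 28686 RPM over the 48 libraries. rno-miR-103-3p was at place 53 with 902 RPM, rno-miR-107-3p at place 78 with 430 RPM, rno-miR-378a-5p at place 113 with 154 RPM, rno-miR-33-5p at place 197 with 24.5 RPM and rno-miR-33-3p at place 246 with 8.76 RPM. In control 3-d replicate 1, rno-miR-33-5p rested on 3 reads and rno-miR-33-3p on 2 reads, which is at or under the 3 reads (10.2 RPM there) that a count of 0 allows. Among the other listed strands and relatives, rno-miR-103-1-5p had 28 reads in all, rno-miR-103-2-5p had 3 and rno-miR-107-5p had 679, and none was tested. rno-miR-378b, a relative whose gene lies within Ncoa2, was tested, with a median of 722 RPM. Of 7 markers of skeletal and heart muscle, tissues rich in miR-378a, rno-miR-1-3p was at 0 in 45 libraries, rno-miR-206-3p in 45, rno-miR-208b-3p in 44, rno-miR-208a-3p in all 48 and rno-miR-133b-3p in 18. rno-miR-133a-3p and rno-miR-499-5p had reads in every library, with medians of 4.51 and 23.8 RPM, the latter near the level of rno-miR-33-5p.

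**Figure D1:**
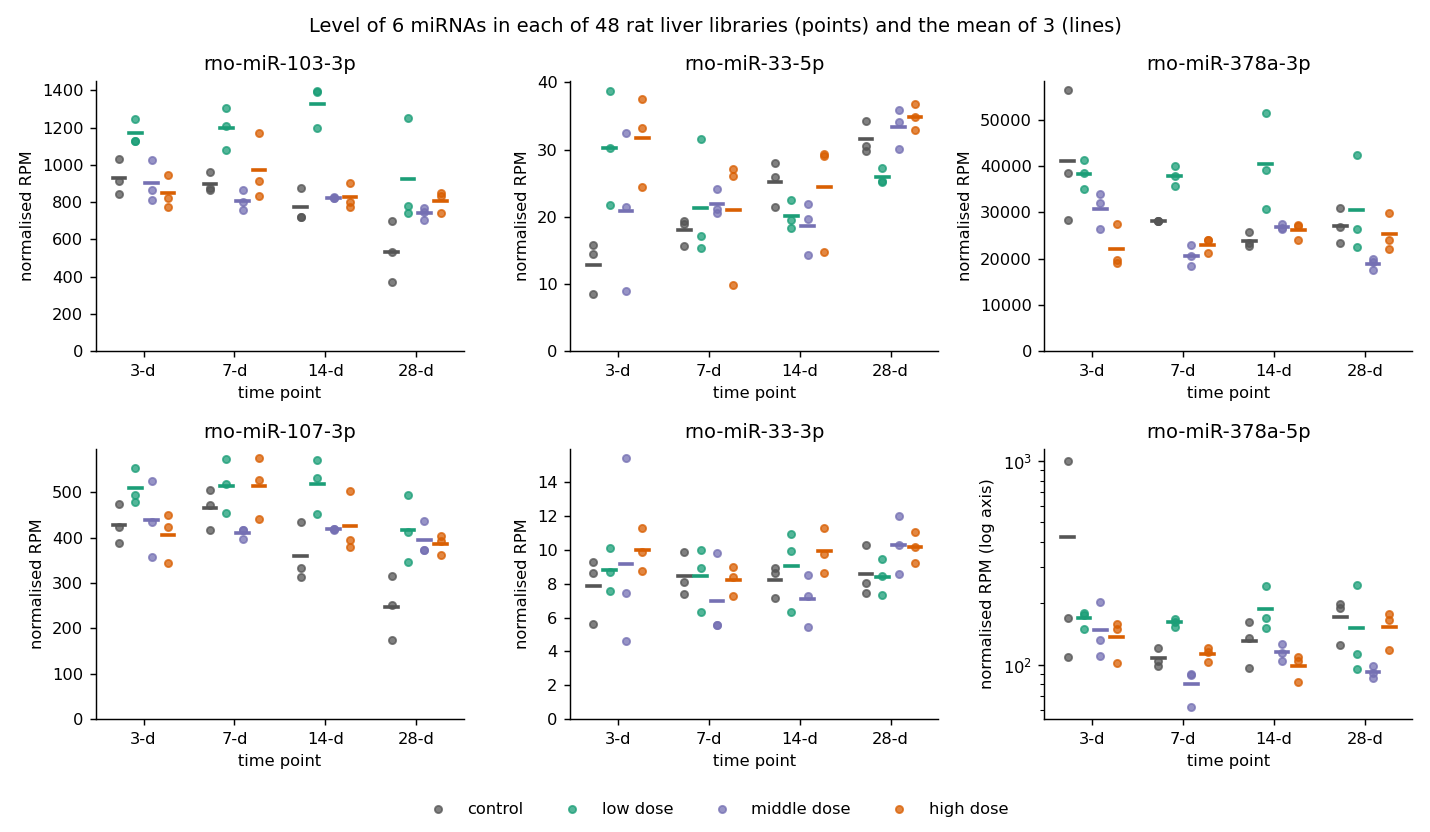
Level of each of the 6 miRNAs in every library, as upper quartile normalised RPM on the y axis (log axis for rno-miR-378a-5p), by time point on the x axis and coloured by group; points are libraries and short lines are means of 3. The low dose rno-miR-103-3p points sit above the controls of the same day at 3-d, 7-d and also 14-d, and 1 control 3-d library of rno-miR-378a-5p sits at 995.

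Each condition was compared with its own 3 controls by edgeR's quasi-likelihood test. A call here means an unadjusted p below 0.05 with a fold change above 1.5, the rule of the study, and the Benjamini-Hochberg adjusted p over the 301 tested is given beside it. Of the 72 combinations of a miRNA and a condition, 12 were called (16.7%), against 18.1% of all tested combinations, so the 6 were called about as often as other miRNAs. Of these, 10 were higher and 2 lower under TAA, shares of all tested combinations being 12.1% and 5.98%. With an adjusted p below 0.05 and the same fold, 5 of the 72 remained, where the share over all tested miRNAs was 11.1%. The treated and control libraries did not overlap in 25 of the 72, and 35.5% of all tested combinations did not overlap.

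rno-miR-103-3p was higher at the low dose. At 14-d the 3 low dose rats held 1200, 1389 and 1399 normalised RPM, and the 3 controls 721, 721 and 874, so the groups did not overlap. The log2 fold change was 0.78 ± 0.14 (SE, edgeR adjusted p = 0.00177). At 7-d, the low dose libraries at 1078, 1210 and 1307 normalised RPM also lay above the controls at 863, 875 and 961. This difference of 0.41 ± 0.10 on the log2 scale had an adjusted p of 0.0129 by edgeR and fell short of the fold limit. At 28-d, the low dose (0.79, adjusted p = 0.285) and the high dose (0.60, adjusted p = 0.111) were called only without adjustment in edgeR. The low dose call at 28-d was lost without control 28-d replicate 17 (0.79, unadjusted p = 0.0887), control 28-d replicate 18 (0.59) or low dose 28-d replicate 29 (0.51), and the high dose call without those controls (0.60 and 0.39) or without high dose 28-d replicate 20 (0.58) or 21 (0.56).

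rno-miR-107-3p was called at 28-d in every dose group. The controls held 174, 251 and 316 normalised RPM, the low dose rats 347, 413 and 494, the middle dose rats 372, 373 and 438, and the high dose rats 362, 392 and 403. Every treated library lay above every control library of that day. In edgeR the log2 fold changes were 0.76 (adjusted p = 0.249), 0.67 (adjusted p = 0.0363) and 0.64 (adjusted p = 0.0975) from low to high dose. All 5 calls of this pair at 28-d share the same 3 controls, and they rest on the lowest of them, control 28-d replicate 18, at 174 normalised RPM of rno-miR-107-3p and 370 of rno-miR-103-3p. Without it none of the 5 was called by edgeR, the log2 fold changes of rno-miR-107-3p being 0.56, 0.48 and 0.44, those of rno-miR-103-3p 0.59 at the low dose (unadjusted p = 0.12) and 0.39 at the high dose, and 5 instead of 10 higher calls were left over all 6 miRNAs. The low dose call of rno-miR-107-3p was also lost without control 28-d replicate 17 (0.77) and without low dose 28-d replicate 30 (0.77), where the fold passed but the unadjusted p did not.

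The controls themselves changed with time. From control 3-d to control 28-d, rno-miR-103-3p went from 842, 916 and 1030 to 370, 533 and 697 normalised RPM, and the ranges did not overlap. In the fit of all 48 libraries the control 28-d minus control 3-d difference was -0.80 ± 0.18 (SE, log2) for rno-miR-103-3p and -0.80 ± 0.18 for rno-miR-107-3p, each with an edgeR adjusted p of 0.000937. Without control 3-d replicate 1 these were -0.81 (edgeR adjusted p = 0.00254) and -0.86 (adjusted p = 0.00176). Against control 7-d, the 28-d controls were lower by -0.75 for rno-miR-103-3p (edgeR adjusted p = 0.00423; -0.55 and 0.0918 without control 28-d replicate 18) and by -0.91 for rno-miR-107-3p (adjusted p = 0.00157). Of the 36 comparisons of control time points over the 6 miRNAs, 10 passed an adjusted p of 0.05 (9 lower and 1 higher at the later day), against 13% of all tested miRNAs, and 5 passed without control 3-d replicate 1. The median of all 301 tested miRNAs moved by -0.26 from control 3-d to control 28-d when libraries were scaled by their totals alone. Under the upper quartile scaling, which the differences above used, it moved by 0.01.

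rno-miR-33-5p showed the opposite order in the control rats. At 3-d the controls held 8.46, 14.4 and 15.8 normalised RPM, at 7-d 15.6, 18.9 and 19.4, at 14-d 21.5, 25.9 and 27.9, and at 28-d 29.8, 30.5 and 34.2. Each later day had the higher mean, and the 28-d and 3-d libraries were far apart. The control 28-d minus control 3-d difference was 1.15 ± 0.35 (SE, log2, edgeR adjusted p = 0.00876), and 1.06 with an adjusted p of 0.0415 without control 3-d replicate 1.

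**Figure D2:**
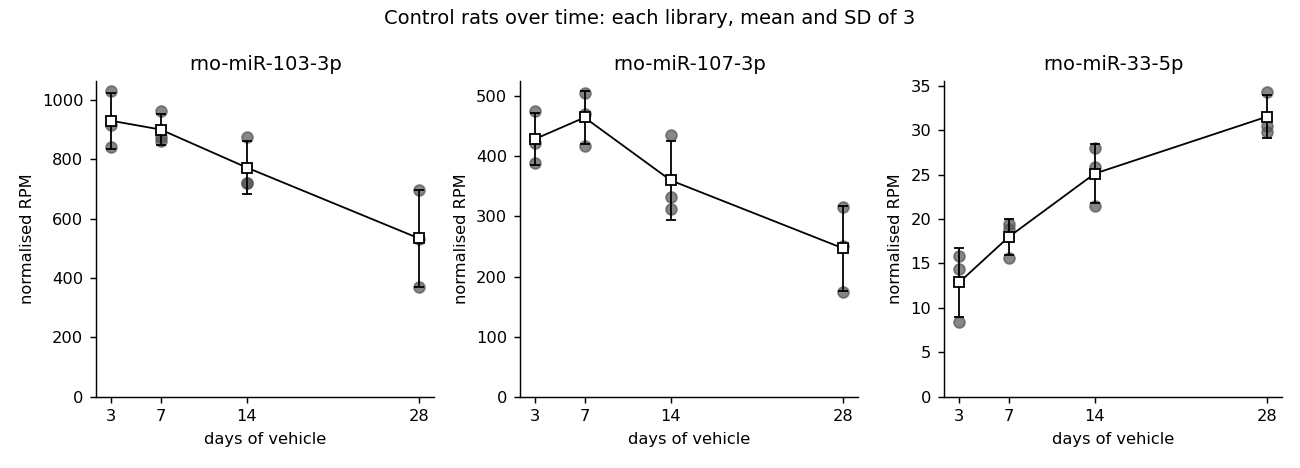
Control rats only: upper quartile normalised RPM (y axis) of rno-miR-103-3p, rno-miR-107-3p and rno-miR-33-5p against days of vehicle (x axis), with each library as a point and the mean and SD of 3 as squares and bars. Mean rno-miR-103-3p is 929 at 3-d and 533 at 28-d, while mean rno-miR-33-5p is 12.9 at 3-d and 31.5 at 28-d.

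Against these controls rno-miR-33-5p was called higher at 3-d. The low dose rats held 21.8, 30.3 and 38.7 normalised RPM and the high dose rats 24.5, 33.2 and 37.6, all above the 3 controls, whereas the middle dose rats were spread over 8.91, 21.4 and 32.5. The log2 fold changes were 1.13 ± 0.33 at the low dose (SE, edgeR adjusted p = 0.219) and 1.22 ± 0.41 at the high dose (adjusted p = 0.4), so neither passed after adjustment. Without control 3-d replicate 1 they were 1.00 (edgeR adjusted p = 0.0409) and 1.07 (adjusted p = 0.357) and were still called. The low dose call was lost without low dose 3-d replicate 45 (0.92) and the high dose call without control 3-d replicate 2 (1.27) or high dose 3-d replicate 22 (1.09), each because the unadjusted p did not pass. The median of all tested miRNAs at 3-d was 0.16 at the low and 0.28 at the high dose. At later days rno-miR-33-5p lay between -0.43 and 0.29 with no call, and the 3-d means of the low (30.2 normalised RPM) and high dose (31.7) stood beside 31.5 in the 28-d controls. rno-miR-33-3p was called in 0 of 12 conditions, its log2 fold changes were -0.29 to 0.27, and at an unadjusted p below 0.05 no condition passed in edgeR.

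rno-miR-378a-3p went both ways. At 14-d the low dose rats held 30780, 39212 and 51421 normalised RPM and the controls 22737, 23286 and 25694, with no overlap. The log2 fold change was 0.76 ± 0.16 (SE, edgeR adjusted p = 0.00372), and 0.55 without low dose 14-d replicate 40, the library at 51421, which is under the fold limit. At 7-d the low dose was higher by 0.43 (edgeR adjusted p = 0.003) and the middle dose lower by -0.45 (adjusted p = 0.00477), with controls close together at 28054, 28161 and 28227 normalised RPM. At 28-d the middle dose was lower by -0.52 (edgeR adjusted p = 0.019). None of these last 3 reached the fold limit. At the high dose at 3-d the libraries at 19150, 19745 and 27568 normalised RPM lay below the controls at 28380, 38574 and 56407. This was called lower, at -0.89 ± 0.39 (SE, log2, edgeR adjusted p = 0.4), and was -0.60 without control 3-d replicate 1, which held the 56407. Leaving out any of the high dose replicates, 22 (-0.82), 23 (-0.80) or 24 (-1.08), or the second control (replicate 2, -0.94), ended the call, again because the unadjusted p did not pass.

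rno-miR-378a-5p, the scarcer strand, was at 98.3, 104 and 121 normalised RPM in the 7-d controls and at 153, 163 and 168 in the low dose rats, a log2 fold change of 0.59 ± 0.11 (SE, edgeR adjusted p = 0.00422). It lies at the fold limit, and fell under it without control 7-d replicate 4 (0.52) or 6 (0.56) or low dose 7-d replicate 46 (0.56) or 47 (0.58). At 28-d the middle dose rats held 86.4, 91.5 and 98.4 and the controls 125, 189 and 197, a log2 fold change of -0.89 ± 0.20 (SE, edgeR adjusted p = 0.00801). Both pairs of groups were separate, and both calls were made in opposite directions. At 3-d the control libraries were at 110, 170 and 995, the last from replicate 1, and the fold changes of -1.32, -1.50 and -1.63 from low to high dose were not called. Without replicate 1 they were 0.27 ± 0.21, 0.09 ± 0.36 and -0.04 ± 0.30 (SE, log2), so that the sign turned at the low and middle dose. Leaving out another control instead gave larger falls: without replicate 3 all 3 doses were called lower (-1.78, -1.96 and -2.09), which brought the lower calls over the 6 miRNAs from 2 to 5, and without replicate 2 the middle (-1.88) and high dose (-2.01). The strand was at a median of 0.441% of the reads of rno-miR-378a-3p in the 47 other libraries and at 1.76% in control 3-d replicate 1. The differences from control 3-d to later controls of rno-miR-378a-5p and rno-miR-378a-3p passed in 5 cases, and none of these did without that library. The difference of control 28-d from control 3-d also missed the limit for rno-miR-378a-3p without control 28-d replicate 17 (-0.51) and for rno-miR-378a-5p without control 28-d replicate 16 (-1.08).

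**Figure D3:**
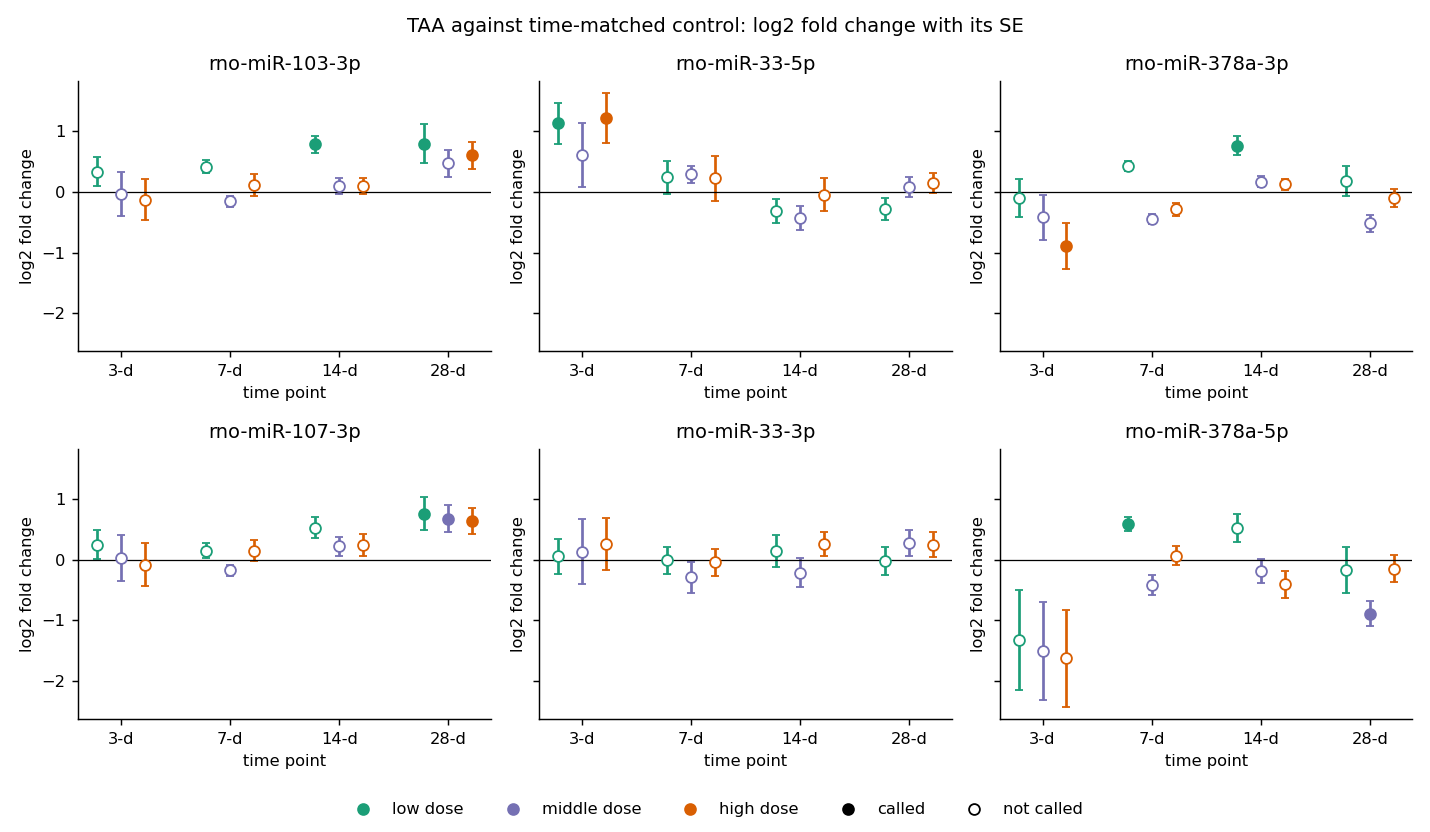
Log2 fold change of each condition against its 3 time-matched controls (y axis) with its SE, by time point (x axis) and dose (colour), from the edgeR fit of 6 libraries; filled points were called (unadjusted p below 0.05 and fold above 1.5). Filled points of rno-miR-107-3p are all at 28-d and those of rno-miR-33-5p at 3-d.

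The effect of each dose against control was averaged over the 4 time points in the fit of all 48 libraries. At the low dose rno-miR-103-3p rose by 0.58 ± 0.09 (SE, log2, edgeR adjusted p = 1.65e-06), rno-miR-107-3p by 0.42 ± 0.09 (adjusted p = 0.000217) and rno-miR-378a-3p by 0.31 ± 0.10 (adjusted p = 0.00764). These were 3 of the 6, where 49.8% of all tested miRNAs passed at the low dose. The value of rno-miR-378a-3p missed the limit under other scalings, with an adjusted p of 0.0657 under TMM and 0.116 with DESeq2 size factors in edgeR.

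At the middle dose rno-miR-378a-3p was lower by -0.30 ± 0.10 (edgeR adjusted p = 0.0137) and rno-miR-378a-5p by -0.74 ± 0.21 (adjusted p = 0.00582), 2 of 6 against 36.5% of all tested. Without control 3-d replicate 1 the value of rno-miR-378a-5p was -0.35. At the high dose rno-miR-107-3p was at 0.24 ± 0.09 (edgeR adjusted p = 0.0435) and rno-miR-378a-3p at -0.29 ± 0.10 (adjusted p = 0.0259), 2 of 6 against 28.2%. Without control 3-d replicate 1 these were 0.22 (adjusted p = 0.0524) and -0.21 (adjusted p = 0.0627), so neither call was left. That of rno-miR-107-3p was lost without any one of 14 libraries, at 0.19 to 0.24, namely control 3-d replicate 1, 7-d replicates 4 and 6, 14-d replicates 13 and 14 and 28-d replicates 17 and 18, and high dose 3-d replicates 22 and 23, 7-d replicates 26 and 27, 14-d replicate 7 and 28-d replicates 20 and 21. That of rno-miR-378a-3p was also lost without high dose 3-d replicate 22 (-0.27) or 23 (-0.26). Over all 12 conditions rno-miR-103-3p was at 0.28 ± 0.07 (edgeR adjusted p = 0.00221), rno-miR-107-3p at 0.28 ± 0.07 (adjusted p = 0.00248) and rno-miR-378a-5p at -0.45 ± 0.17 (adjusted p = 0.0287), 3 of 6 against 41.2%. Without control 3-d replicate 1 rno-miR-378a-5p was at -0.06 (adjusted p = 0.674), and it also missed the limit without control 14-d replicate 13 (-0.40), control 28-d replicate 17 (-0.43) or 18 (-0.42) or control 7-d replicate 5 (-0.42). Neither strand of rno-miR-33 passed at any dose, the nearest being rno-miR-33-5p at the high dose with 0.37 ± 0.16 (edgeR adjusted p = 0.0793).

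Treated groups were then compared with each other, so that the controls drop out. Averaged over the 4 days, rno-miR-378a-3p was lower at the middle than at the low dose by -0.62 ± 0.10 (SE, log2, edgeR adjusted p = 4.87e-06) and lower at the high than at the low dose by -0.60 ± 0.10 (adjusted p = 3.12e-05). rno-miR-103-3p was lower by -0.49 ± 0.09 at the middle dose (edgeR adjusted p = 2.60e-05) and by -0.41 ± 0.09 at the high dose (adjusted p = 0.00055). rno-miR-378b, whose gene lies on another chromosome, was lower by -0.66 ± 0.10 at both (edgeR adjusted p = 2.36e-06 and 8.80e-06). Its reads were at a median of 2.78% of those of rno-miR-378a-3p in the 47 libraries without control 3-d replicate 1. Whether some reads match both was not tested, so rno-miR-378b cannot be taken as a separate measurement.

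The medians over the 12 libraries of a dose show the same order. rno-miR-378a-3p was at 38116 normalised RPM at the low, 24632 at the middle and 23978 at the high dose, with 28107 in the controls, and rno-miR-103-3p was at 1205, 818, 833 and 852. The ranges overlapped, the low dose rats covering 22567 to 51421 for rno-miR-378a-3p. rno-miR-107-3p was lower at the middle than at the low dose by -0.23 ± 0.09 (edgeR adjusted p = 0.0287) and rno-miR-378a-5p by -0.65 ± 0.21 (adjusted p = 0.00891). Against the high dose they missed the limit, at -0.18 ± 0.09 (adjusted p = 0.108) and -0.43 ± 0.21 (adjusted p = 0.102). For middle minus low 4 of the 6 passed, where 47.5% of all tested did, for high minus low 2 of 6 against 35.2%, and for high minus middle 0 of 6 against 8.97% (also 0 at an unadjusted edgeR p below 0.05). The difference of rno-miR-107-3p was lost without low dose 3-d replicate 45, 7-d replicate 48, 14-d replicate 42, 28-d replicate 29 or middle dose 3-d replicate 10, at -0.22 to -0.20. The 4 differences of rno-miR-378a-3p and rno-miR-103-3p passed with each of the 48 libraries left out in turn. When libraries were scaled by their totals alone, the median of all tested miRNAs moved by 0.22 to 0.23 in these low dose comparisons. Under the upper quartile scaling it moved by 0.02 (middle minus low) and 0.09 (high minus low).

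**Figure D4:**
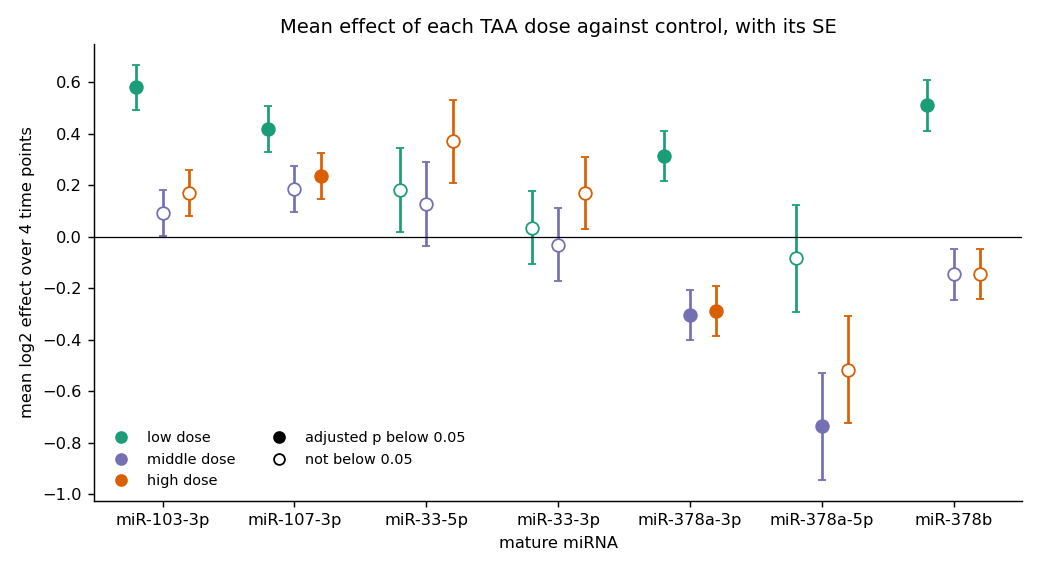
Mean log2 effect of each dose over the 4 time points against control (y axis), with its SE, for the 6 miRNAs and rno-miR-378b (x axis); filled points have an adjusted p below 0.05. The low dose points of miR-103-3p (0.58), miR-107-3p (0.42), miR-378a-3p (0.31) and miR-378b (0.51) are filled, and the middle and high dose points of miR-378a-3p (-0.30 and -0.29) lie on the other side of 0.

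Day by day, 9 of 72 dose differences passed, all lower at the higher dose, against 10.9% of all tested. rno-miR-378a-3p held 6 of them: high minus low at 3-d (-0.79), 7-d (-0.72) and 14-d (-0.63), and middle minus low at 7-d (-0.88), 14-d (-0.59) and 28-d (-0.69). rno-miR-103-3p held 3, middle minus low at 7-d (-0.57) and 14-d (-0.69) and high minus low at 14-d (-0.68). The edgeR adjusted p-values were 0.00165 to 0.0358. At 14-d the median of all tested miRNAs itself moved by -0.14 in both middle minus low and high minus low. With 1 library left out, the middle minus low value of rno-miR-378a-3p at 7-d and both values of rno-miR-103-3p at 14-d always passed. Without low dose 14-d replicate 40 the 14-d values of rno-miR-378a-3p were -0.38 (middle) and -0.42 (high) and did not pass, and without low dose 28-d replicate 29 its 28-d value was -0.38 and did not pass. The other 6 calls were each lost without some library of the groups compared as well, the values then being -0.76 to -0.50. For rno-miR-378a-3p these were high dose replicate 22 at 3-d, high dose replicates 25 and 26 and low dose replicates 46, 47 and 48 at 7-d, high dose replicate 8 and middle dose replicates 31, 32 and 33 at 14-d, and middle dose replicates 37, 38 and 39 at 28-d. For rno-miR-103-3p at 7-d they were low dose replicate 47 and middle dose replicate 34. By the rule of the study for a dose trend, an ordered fold change at 2 or more time points, rno-miR-107-3p, rno-miR-378a-3p and rno-miR-378a-5p went down with dose at 2 time points each. None of the 6 met the rule for time. The rule is a description without a test, and how many of all tested miRNAs meet it was not counted. For rno-miR-107-3p and rno-miR-378a-5p, 0 of 12 dose differences by day passed. Of 72 differences of an effect between time points within a dose, 0 passed in edgeR (15 at an unadjusted p below 0.05), against 2.93% of all tested, but 9 passed with TMM scaling and 12 with DESeq2, and up to 9 with 1 library left out (9 without control 3-d replicate 3, 5 without low dose 28-d replicate 29, 4 without control 3-d replicate 2 or control 28-d replicate 16), so the count depends on scaling and library.

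Marker miRNAs of the cell types in liver were measured beside these results, and their part in the differences of rno-miR-103-3p and rno-miR-378a-3p was not tested. The 4 hepatocyte markers summed to 237484 to 319172 RPM at the low dose, to 223464 to 288657 at the middle, to 227611 to 271004 at the high dose and to 222703 to 254551 in the controls without control 3-d replicate 1. Of these 4, miR-122-5p (0.59) and miR-192-5p (0.42) rose at the low dose and miR-122-3p fell by 0.52 on the log2 scale, in the edgeR test of the dose mean. The 5 leukocyte markers had a median sum of 2510 RPM at the low dose, 3944 at the middle, 3572 at the high dose and 3563 in these controls. Most of that sum was miR-142-5p (median 2643 RPM), which did not pass at the low dose (-0.20, edgeR adjusted p = 0.208). The members of this list went opposite ways there, as miR-150-5p (-1.08) and miR-223-3p (-0.60) fell and miR-155-5p (0.54) rose, and miR-155-5p also rose at the middle (0.46) and high dose (0.80). Unlike the sums, the dose means of all markers kept control 3-d replicate 1 among the controls. In that library miR-150-5p was at 1892 RPM, miR-223-3p at 44.3 and miR-155-5p at 0. Their medians over all libraries were 438, 95.3 and 23.8 RPM. The dose means of the markers were not computed without it.

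By the same edgeR dose means, 21.3% of all tested miRNAs fell at the low, 13.3% at the middle and 6.64% at the high dose, and 28.6%, 23.3% and 21.6% rose. Of the 4 red blood cell markers, 3 fell at the low dose (miR-451-5p, miR-144-5p and miR-486), the same 3 at the middle dose, and miR-486 at the high dose, with control 3-d replicate 1 among the controls. Their median sums were 4119 RPM at the low, 2365 at the middle and 3751 at the high dose, and 4642 in the controls without that library. The 5 bile duct markers had a median sum of 575 RPM at the low dose, 919 at the middle and 848 at the high dose, against 1001 in these controls. Among them miR-429 fell (-1.01) and miR-200a-3p rose (0.31) at the low dose, and miR-200c-3p rose (0.51) at the middle dose. Of 5 stellate or smooth muscle markers, miR-143-3p rose (0.28) and miR-145-5p fell (-0.99) at the low dose, and miR-199a-5p rose (0.51) at the middle dose. The 2 endothelial markers had median log2 changes of -0.05, 0.03 and 0.05 from low to high dose. The 7 skeletal and heart muscle markers summed to 19.7 to 47.4 RPM in all libraries, and of the 2 tested, miR-499-5p rose at the low (0.38), middle (0.59) and high dose (0.52), while miR-133a-3p fell at the middle dose (-0.90).

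rno-miR-107-3p and rno-miR-103-3p, which share a seed, did not keep a fixed proportion. rno-miR-107-3p had a median of 47% of the reads of rno-miR-103-3p in the controls, 42.3% at the low, 51.1% at the middle and 48.9% at the high dose. At the low dose the log2 ratio was lower than in the time-matched controls by -0.15 (exact permutation test within time points, two-sided, p = 0.00613, adjusted p = 0.0368 over 6 tests), with the lower mean on all 4 days. At 28-d the groups hardly differed, at 46.4 ± 6.8% for the low dose and 46.5 ± 0.99% for the controls (mean and SD). At the middle dose it was higher by 0.09 (exact permutation p = 0.0409, adjusted p = 0.123) and at the high dose by 0.07 (exact permutation p = 0.123, adjusted p = 0.228). The low and middle dose ratios were not compared with each other by a test. The low dose value had an adjusted p of 0.067 without control 28-d replicate 18 and missed the limit with 13 of the 48 libraries left out in turn. The ratio of the miR-378a strands was not shown to differ at any dose, with adjusted exact permutation p of 0.228 to 0.724.

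**Figure D5:**
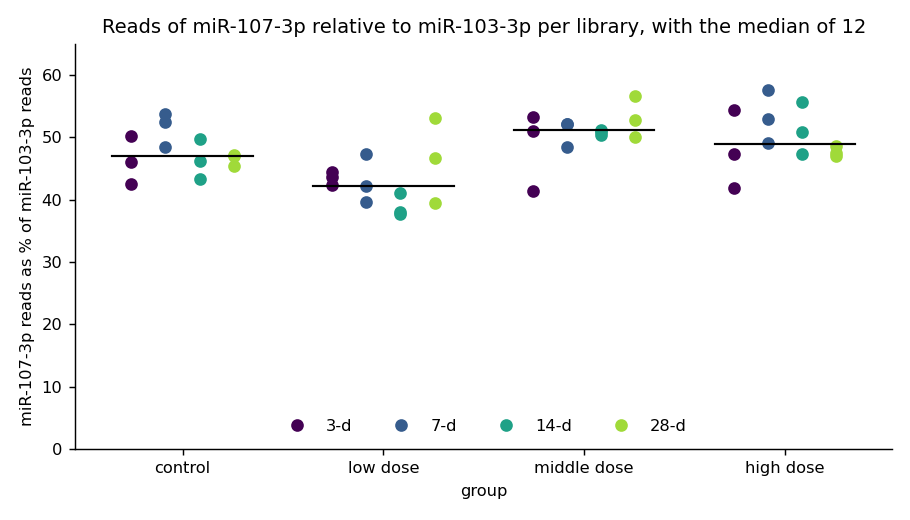
Reads of rno-miR-107-3p as a percent of reads of rno-miR-103-3p (y axis) in each of the 48 libraries, by group (x axis) and day (colour), with the median of 12 as a line. The medians are 47% in controls and 42.3%, 51.1% and 48.9% from low to high dose, and the ranges overlap.

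The order of the 16 groups differed between the miRNAs. The highest means of rno-miR-103-3p were at the low dose at 14-d (1329 ± 112 normalised RPM, SD, n = 3), 7-d (1198 ± 115) and 3-d (1169 ± 66.6), and the lowest were control 28-d (533 ± 163) and middle dose 28-d (740 ± 34). rno-miR-378a-3p was highest in control 3-d (41120 ± 14186, with a mean of 33477 without replicate 1) and low dose 14-d (40471 ± 10378) and lowest at the middle dose at 28-d (18911 ± 1214). rno-miR-33-5p was highest at the high dose at 28-d (34.8 ± 2.0) and lowest in control 3-d (12.9 ± 3.90, with a mean of 15.1 without replicate 1). Of the 15 pairs of neighbours in each order, the gap exceeded the larger SD in 3 pairs of rno-miR-103-3p, 2 of rno-miR-107-3p, 1 of rno-miR-33-5p, 1 of rno-miR-378a-3p, and none of the other 2, so most neighbours did not differ beyond their spread.

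The miRNAs with the most similar pattern were found by Pearson's r of log2 values over the 16 group means, which share libraries and scaling. For rno-miR-103-3p these were rno-miR-107-3p (r = 0.92), rno-miR-31a-5p (0.86) and rno-miR-152-5p (0.86), and for rno-miR-107-3p they were rno-miR-93-5p (0.94), rno-miR-103-3p (0.92) and rno-miR-31a-5p (0.87). For rno-miR-33-5p they were rno-miR-32-5p (0.92), rno-miR-142-3p (0.91) and rno-miR-126a-5p (0.88), while rno-miR-33-3p had no r above 0.63 (rno-miR-144-3p), with rno-miR-33-5p (0.61) and rno-miR-24-1-5p (0.61) next. For rno-miR-378a-3p they were rno-miR-194-3p (0.88), rno-miR-378b (0.85) and rno-miR-140-3p (0.83), and for rno-miR-378a-5p rno-miR-3577 (0.90), rno-miR-181a-5p (0.88) and rno-let-7b-3p (0.87). The control 3-d mean of rno-miR-378a-5p was 425 ± 495 normalised RPM (SD), with replicate 1 at 995, and its other group means were 80.6 to 188. Its r values can therefore rest on that library. No r was computed without control 3-d replicate 1. Between the families, rno-miR-103-3p and rno-miR-378a-3p had r = 0.64, and rno-miR-33-5p ran against rno-miR-378a-3p (-0.47) and rno-miR-103-3p (-0.36).

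Other miRNAs of lipid metabolism, 17 listed and 15 tested, were set beside them by the dose means of the same edgeR fit. At the low dose 3 rose and 7 fell, with a median of -0.31 on the log2 scale against 0.04 for all tested, where 28.6% of all tested rose and 21.3% fell. At the middle and at the high dose, 3 rose and 1 fell, beside 23.3% and 13.3% of all tested at the middle and 21.6% and 6.64% at the high dose. The 3 of 15 that rose were near the share of all tested at each dose. At the low dose the 7 of 15 that fell were above the share of all tested. The list was led in number of calls by miR-34a-5p, a p53 target, with 12 of 12 conditions higher and a low dose mean of 3.69 (adjusted p = 9.45e-14). Next were miR-144-3p with 1 condition higher and 5 lower, miR-185-5p, which restrains cholesterol synthesis genes, with 5 higher and a low dose mean of 0.59 (adjusted p = 0.000393), and miR-96-5p with 4 higher and a middle dose mean of 1.11 (adjusted p = 0.00014). miR-145-5p and miR-335 tied with it at 4 conditions, all lower. miR-122-5p, the main hepatocyte miRNA, was called in 3.

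Of 13 miRNAs of glucose and insulin metabolism, all tested, 5 rose and 3 fell at the low dose, 1 rose and 2 fell at the middle, and 0 rose and 1 fell at the high dose, with medians of 0.05, -0.12 and 0.06 against 0.04, -0.01 and 0.09 for all tested. Set against the same shares of all tested (28.6% higher and 21.3% lower at the low dose), 5 and 3 of 13 were close to what all tested gave, and the 1 and 0 that rose at the higher doses were below it. miR-29a-3p, which targets collagen messenger RNAs, was called lower in 4 conditions and had a low dose mean of -0.70 (edgeR adjusted p = 1.89e-05). miR-802-5p was called in 3, with 1 higher and 2 lower, and miR-26a-5p in 3, all lower. Next, at 2 conditions each, were miR-29b-3p and let-7a-5p, called higher, and miR-29c-3p, called lower. The low dose means of miR-29b-3p and miR-29c-3p were 0.05 and -0.30 (edgeR adjusted p = 0.861 and 0.0299). miR-29b-3p rose at the middle dose (0.32, edgeR adjusted p = 0.0364), so the miR-29 members did not go one way. The 3 let-7 miRNAs in the list, let-7a-5p (0.73), let-7b-5p (0.51) and let-7c-5p (0.52), rose at the low dose. Relatives of miR-107 in the miR-15 group, whose seeds are shifted by a base, 7 listed and 6 tested, gave 0 at each dose mean in edgeR. From low to high dose, 49.8%, 36.5% and 28.2% of all tested passed, and the medians of the group were -0.14, -0.00 and 0.18. In that group miR-15b-5p was called higher in 2 conditions, miR-195-5p higher in 1 and lower in 1, miR-16-5p higher in 1 and miR-322-5p lower in 1. Of all tested combinations of a miRNA and a condition, 18.1% were called.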

How the data were processed

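Liver miRNA-seq of 48 rats was analysed. The authors isolated total RNA, prepared TruSeq small RNA libraries, trimmed adaptors, kept reads of 18 to 25 bases, checked them against rn5, and counted them against miRBase release 21 with miRDeep2. The submitters' processing notes also name FastQC. The deposited values are raw counts per precursor and mature miRNA, with no normalization or filter. Of several precursor rows, that with the most reads was kept, as 71 mature miRNAs had more than 1.

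Members and lists were chosen with earlier results of these data known. Counts were analysed with edgeR 4.0.16 in R 4.3.3, with upper quartile normalization, on 301 miRNAs with at least 5 RPM in at least 3 libraries. Each condition was fitted with its 3 controls, and contrasts came from a single fit of 48 libraries and 16 group means, with Benjamini-Hochberg adjustment over the 301 within each contrast. Normalised RPM is RPM divided by the upper quartile factor. Standard errors follow from the log2 fold change and its F statistic. Ratios of reads within a library, with 0.5 reads added, were compared by an exact permutation test over 160000 arrangements within time points (smallest possible p 1.25e-05). DESeq2 1.42.0 (Wald test), TMM, DESeq2 size factors, library size alone, filters, summed precursor rows, pooled controls, and leaving out each library were alternatives. The averaged dose differences and the fits without 3-d were added after seeing the data. The edgeR tests were checked on simulated counts. The permutation test was checked on simulated normal values, with no shift and with a shift larger than the ratio differences found here. Named miRNAs were the members, their listed relatives, the 3 most similar to each, the markers, and in each list the 4 called most often. miR-145-5p, miR-335, miR-122-5p, miR-29b-3p, miR-29c-3p and the let-7 miRNAs were named after their values were seen, as were rno-miR-378b values beside miR-378a. Limits from a count of 0 cover counting error only.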

Additional observations from a re-analysis of the deposited data

Results flagged for a closer look

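Differences of TAA effects between doses, tested by contrasts of the same 48-library edgeR fit, set apart 15 results, all lower at the higher dose. Averaged over time points, the middle minus low dose values were -0.49 for rno-miR-103-3p, -0.23 for rno-miR-107-3p, -0.62 for rno-miR-378a-3p and -0.65 for rno-miR-378a-5p, and the high minus low dose values were -0.41 for rno-miR-103-3p and -0.60 for rno-miR-378a-3p (log2 scale). Within a day, rno-miR-378a-3p differed between high and low dose at 3-d (-0.79), 7-d (-0.72) and 14-d (-0.63), and between middle and low dose at 7-d (-0.88), 14-d (-0.59) and 28-d (-0.69). rno-miR-103-3p differed between middle and low dose at 7-d (-0.57) and 14-d (-0.69), and between high and low dose at 14-d (-0.68). On the same day, middle minus low and high minus low share their low dose libraries. Their cause was not tested.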

How the results depend on the processing

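No paired analysis was possible because the groups share no replicate numbers. The averaged dose differences of rno-miR-103-3p and rno-miR-378a-3p kept direction and significance under all 8 other settings run and with each of 48 libraries left out: middle minus low lay between -0.53 and -0.27 and between -0.72 and -0.40, high minus low between -0.46 and -0.27 and between -0.65 and -0.47. The low dose means of rno-miR-103-3p and rno-miR-107-3p also kept both. For all other changes below, the cause was not tested. Depth limits rno-miR-33-3p and rno-miR-33-5p, most of all in control 3-d replicate 1.

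Higher calls numbered 4 by adjusted p, 3 against all 12 controls pooled and 4 with no filter, and lower calls 1, 1 and 4, also 1 with 5 RPM in every library, 4 by DESeq2 and 5 in a single fit of all libraries. Against pooled controls rno-miR-378a-5p at the low dose at 7-d was -0.33. Significant dose differences by day numbered 3 with library size scaling and 4 with no filter, and time differences 2 with 5 RPM in every library, 12 by DESeq2, 10 with its size factors, 9 with TMM, 11 with library size and 1 with no filter.

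At the high dose the mean of rno-miR-107-3p lost significance with DESeq2 (0.13), its size factors (0.12), TMM (0.15) and no filter (0.076), and that of rno-miR-378a-5p gained it at -0.70, -0.69, -0.65 and -0.70, and with summed precursor rows at -0.54. At the low dose rno-miR-378a-3p lost significance at 0.22, 0.22, 0.25 and 0.20 under the same 4. The near-zero low dose mean of rno-miR-33-3p turned to -0.011 with DESeq2, -0.012 with its size factors and with summed rows, -0.028 with library size and -0.058 with no filter.

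With library size scaling, rno-miR-103-3p gained significance at the high (0.23) and middle dose (0.22), rno-miR-107-3p at the middle (0.32) and rno-miR-33-5p at the high dose (0.44), rno-miR-378a-3p lost it at the middle dose (-0.18), and rno-miR-33-3p turned to 0.13 there. Middle minus low lost significance for rno-miR-107-3p (-0.023) and rno-miR-378a-5p (-0.42), and for rno-miR-107-3p also with 5 RPM in every library (-0.10), no filter (-0.24), summed rows (-0.18) and without 3-d (-0.24). With 5 RPM in every library the middle dose mean of rno-miR-107-3p gained significance (0.28) and that of rno-miR-378a-3p lost it (-0.20). With no filter the means over all conditions of rno-miR-103-3p (0.15) and rno-miR-107-3p (0.15) lost significance, that of rno-miR-33-3p turned to -0.056, and the middle dose mean of rno-miR-103-3p to -0.025.

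Without 3-d, rno-miR-33-5p turned to -0.010 over all conditions, -0.12 at the low and -0.019 at the middle dose, rno-miR-378a-3p to 0.033 over all and rno-miR-378a-5p to 0.31 at the low dose. Significance was lost by rno-miR-378a-5p over all (-0.11) and at the middle dose (-0.50), by rno-miR-378a-3p at the high (-0.086) and middle dose (-0.27), and by the low dose ratio of rno-miR-107-3p to rno-miR-103-3p (-0.18).

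Leaving out each library in turn gave 5 to 12 higher and 1 to 5 lower calls, 5 to 11 significant control time differences and 0 to 9 time differences. Means ranged from -0.56 to -0.060 for rno-miR-378a-5p over all conditions, -0.64 to -0.13 for it at the high dose and -0.22 to 0.30 at the low dose, -0.34 to -0.21 for rno-miR-378a-3p at the high dose, 0.12 to 0.23 for rno-miR-103-3p and 0.19 to 0.29 for rno-miR-107-3p at the high dose, 0.14 to 0.24 for rno-miR-107-3p at the middle dose, 0.32 to 0.45 for rno-miR-33-5p at the high dose, and -0.0036 to 0.085 (low) and -0.18 to 0.045 (middle) for rno-miR-33-3p. Middle minus low of rno-miR-107-3p ranged from -0.27 to -0.20. The ratio of rno-miR-107-3p to rno-miR-103-3p ranged from -0.18 to -0.13 at the low and 0.075 to 0.12 at the middle dose, and that of the miR-378a strands at the high dose from -0.18 to 0.094. At 3-d rno-miR-378a-5p ranged from -1.78 to 0.27 at the low and -1.96 to 0.086 at the middle dose. Control 28-d minus control 3-d of rno-miR-378a-5p ranged from -1.74 to 0.28.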
